A study of Drosophila melanogaster with 32 samples.

Results

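Juvenile hormone turnover and response in the fly head were followed through 8 genes: the hydrolase genes Jhe, Jhedup, Jheh1, Jheh2 and Jheh3, the receptor genes Met and gce, and the response gene Kr-h1. The genes were taken by their FlyBase symbols, and they are 8 of the 17559 genes in the count files. Reads were counted for 7 of them, and these 7 also passed the filter on low counts in every comparison. Kr-h1 had no counted read in any library.

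The samples were 32 RNA-seq libraries of polyadenylated RNA from the heads of adult male Drosophila melanogaster, each made from a separate pool of about 100 flies per the labels' protocols. The strains were w+hsp70- (3 libraries at 5 h and 3 naive), hsp70- (3 at 5 h and 3 naive), hsp70-4c (3 at 5 h, 3 at 24 h and 4 naive) and hsp70-1c (3 at 5 h, 3 at 24 h and 4 naive). Naive males had not been trained, and the others were frozen at 5 h or 24 h after training. The labels describe neither the training nor the ages, and they do not say what the strain names stand for or whether the strains share a genetic background. The naive hsp70-4c libraries carry titles that read as a control for the 5 h collection, while their other labels call them naive. Each strain came with all of its own libraries, so strain, genetic background and any difference in handling between strains cannot be told apart. Within a strain, training cannot be told apart from any difference in age, time of day or handling between trained and naive flies.

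Juvenile hormone is a lipid hormone made by the corpora allata, a gland behind the brain. It is broken down along 2 routes, by esterases that cut its methyl ester and by epoxide hydrolases that open its epoxide. In target cells it binds the related transcription factors Met and gce, which switch on Kr-h1 and other genes. In adult flies the hormone is best known for its part in egg production and in the reproductive maturation of males.

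The libraries held between 4.54 M and 10.34 M reads assigned to genes (M, 1000000 reads), with a median of 7.375 M. The summed CPM (counts per 1000000 reads) of 6 photoreceptor genes was between 30004 and 56121 in every library, while the 9 testis genes summed to at most 18.0 CPM. Gut transcripts were present as well, since 20 digestive enzyme genes summed to between 5308 and 25853 CPM per library, with alphaTry, a trypsin gene, at a median of 2484 CPM. In naive hsp70-1c the gut sum was 25853 CPM in replicate 2, against 5741 to 14032 CPM in the other libraries of that group. In hsp70- it was 8294 to 25454 CPM at 5 h and 11803 to 13850 CPM in naive flies. The part of gut RNA in the members' levels was not tested. The jhamt gene, which encodes the methyltransferase of the last steps of hormone synthesis, was read in all 32 libraries at 15.6 to 52.9 CPM. It was the only gene listed for the corpora allata, and whether its reads came from that gland was not tested. In whole heads, fewer cells of a type and less RNA per cell cannot be told apart.

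The annotation places the members in 5 loci. Positions are on the Drosophila build dm6, from the Ensembl annotation of BDGP6. Jhedup lies on chromosome 2R at 16117109 to 16119149 and Jhe at 16119793 to 16122773, both on the + strand and 643 bases apart. Jheh1 (18853434 to 18855087), Jheh2 (18855767 to 18858245) and Jheh3 (18860375 to 18862078) lie in a row on the − strand of 2R. A Bari1 transposable element of 1729 bases is annotated between Jheh2 and Jheh3, 45 bases from Jheh2 and 355 from Jheh3, and whether the 4 strains carry it was not measured here. Met lies on X at 11616124 to 11621280, gce on X at 15297766 to 15319074 and Kr-h1 on 2L at 6082603 to 6096498, all on the + strand.

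**Figure D1:**
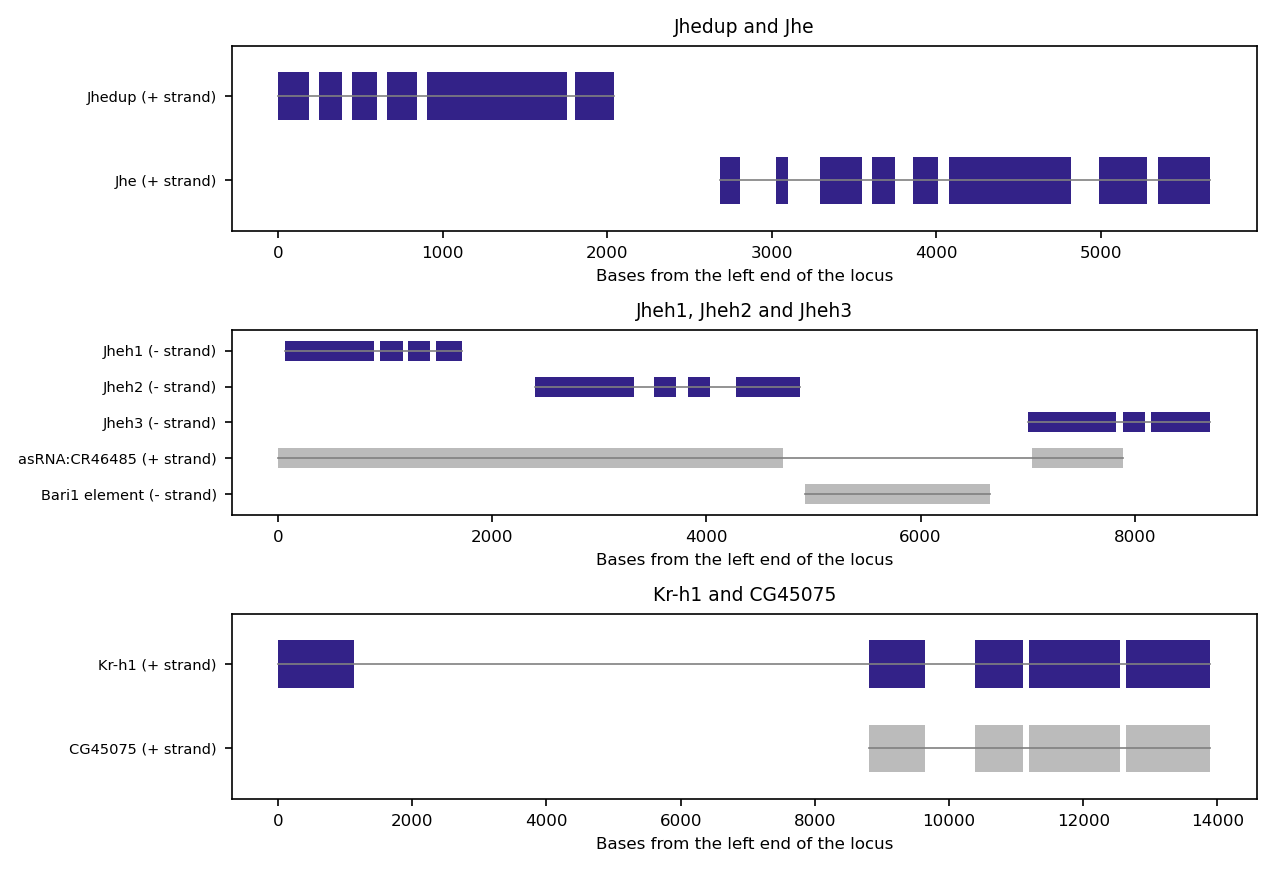
Exon maps of the 3 member loci that hold neighbouring or overlapping genes, in bases from the left end of each locus. Blue boxes are exons of members and grey boxes are other annotated features. The antisense gene asRNA:CR46485 covers 1486 exon bases of Jheh1, 1765 of Jheh2 and 780 of Jheh3, and CG45075 covers 4168 of the 5306 exon bases of Kr-h1 on the same strand.

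Several members overlap other annotated genes, which bears on what their counts hold. asRNA:CR46485 runs opposite Jheh1, Jheh2 and Jheh3 and has no line in the count files, so it could not be analysed here. asRNA:CR44429 and asRNA:CR44961 run opposite gce over 167 and 2197 of its exon bases. Libraries were strand-specific per the labels' protocols, and the strand setting of the counting is not given in the sources used here. In the files, 112 of 129 genes lying wholly under exons of the opposite strand had reads, with a median of 471 reads over the 32 libraries. Of 346 genes lying wholly under exons of the same strand, 223 had none.

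Across all 32 libraries the members spanned a wide range of levels. Per kilobase of exon, Jhedup averaged 133 CPM, Jheh1 113 CPM, Jheh2 104 CPM and Jheh3 39.2 CPM. Jhe averaged 9.64 CPM per kilobase, against 6.32 for gce and 1.69 for Met. On this per-length scale Jhedup, whose product is an esterase known from the antenna, was thus above its neighbour Jhe, the esterase named for the hormone. Met was read at 33 to 85 counts per library, fewer than any other detected member.

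A test for any difference among the 10 groups called 4 of the 7 members (edgeR quasi-likelihood test, Benjamini-Hochberg adjusted p under 0.05, as in all calls here), while 34.6% of all 10843 genes tested were called. The adjusted p was 2.3e-07 for Jheh3, 2.5e-07 for Jhedup, 0.00022 for Jhe and 0.0095 for Jheh1. It was 0.24 for gce, 0.50 for Met and 0.55 for Jheh2.

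The members differed in where their variation lay. Of the variance of log2 CPM, differences between strains took 84.8% for Jhedup and 83.2% for Jheh3, against 20.3% for the median gene. For Jheh1 the larger share, 51.0%, lay between times within a strain, where the median gene had 19.4%. Jhe was split, with 33.7% between strains and 39.4% between times within a strain. Most of the variance of Jheh2 (71.6%), Met (67.0%) and gce (58.1%) lay between replicates of a group, where the median gene had 54.7%.

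**Figure D2:**
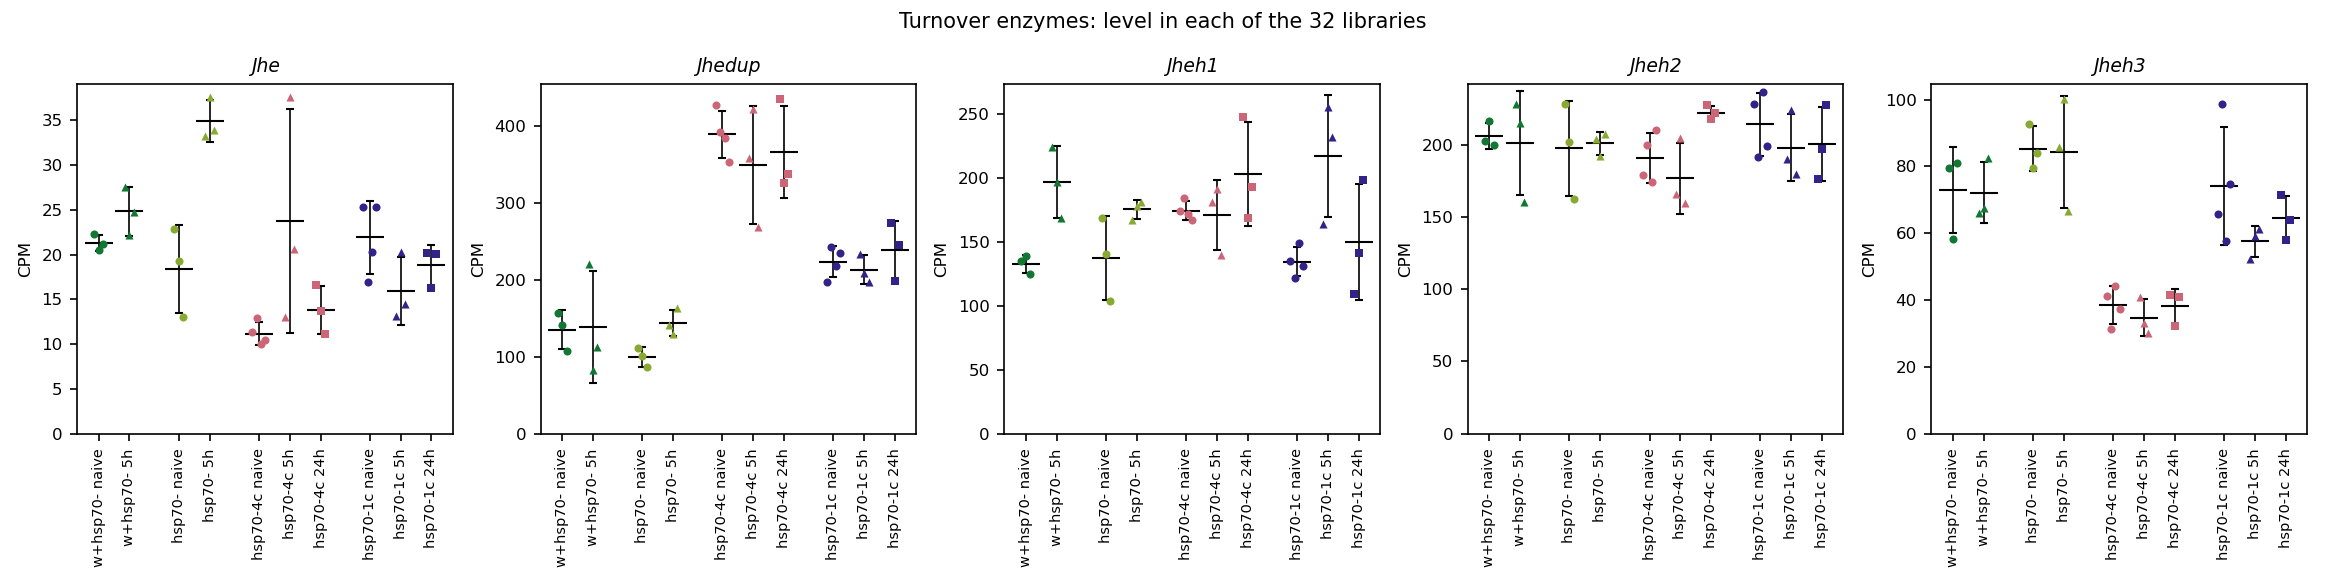
Level of each turnover enzyme gene in CPM (y axis, from 0), with 1 point per library, for the 10 strain and time groups (x axis). Circles are naive, triangles 5 h and squares 24 h; bars show the mean and SD of the 3 or 4 libraries of a group. The hsp70-4c libraries lie highest for Jhedup and lowest for Jheh3 at every time, and Jheh2 lies between 159.7 and 236 CPM throughout.

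The esterase gene Jhe differed between naive strains and was lowest in naive hsp70-4c. It stood at 11.3, 12.9, 10.05 and 10.5 CPM in the naive hsp70-4c libraries, against 25.3, 16.9, 20.3 and 25.3 CPM in the naive hsp70-1c libraries. Every naive hsp70-4c value was below every naive hsp70-1c value. The log2 difference was −0.99 ± 0.16 (SE, adjusted p = 0.00024, edgeR), a level 0.504 times that of hsp70-1c. Without naive hsp70-1c replicate 2, the library with the high gut sum, it was −1.08.

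In the naive w+hsp70- libraries Jhe stood at 22.2, 20.5 and 21.2 CPM, again above every naive hsp70-4c library. The log2 difference of naive w+hsp70- over hsp70-4c was 0.94 ± 0.17 (SE, adjusted p = 0.0011, edgeR). Both comparisons use the same hsp70-4c libraries and are not independent. Naive hsp70- had 22.8, 19.3 and 13.04 CPM, and its log2 difference from naive hsp70-1c, −0.26 ± 0.17 (SE), was not called (adjusted p = 0.42, edgeR).

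After training, no change of Jhe was called in any of the 6 comparisons. The groups lay apart in some, and how often this happened over all genes was not computed. In hsp70- the level was 33.2, 37.6 and 33.9 CPM at 5 h, against the 22.8, 19.3 and 13.04 CPM of naive hsp70-. The 5 h libraries were all higher than the naive ones. The log2 difference was 0.94 ± 0.18 (SE, adjusted p = 0.18, edgeR). The call depended on the method, since the adjusted p was 0.016 with DESeq2, 0.028 with no filter on low counts, and 0.042 without naive hsp70- replicate 1. The 5 h libraries of hsp70- were also the deeper ones, with 5.61 M to 7.77 M assigned reads against 4.54 M to 5.17 M in the naive ones, and the part of depth in this difference was not tested.

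In hsp70-4c Jhe stood at 13.1, 37.6 and 20.6 CPM at 5 h, against 10.05 to 12.9 CPM in the 4 naive libraries. Replicate 2 was high, replicate 1 was just above the highest naive library, and the ranges did not overlap. The log2 difference was 1.09 ± 0.32 (SE, adjusted p = 0.084, edgeR). Without replicate 2 the log2 difference was 0.60 (adjusted p = 0.13). It was called without replicate 1 of the 5 h group (adjusted p = 0.0097), with all 32 libraries in 1 fit (0.0057) and with DESeq2 (0.0046). At 24 h the values were 16.6, 13.7 and 11.2 CPM and overlapped the naive range, with a log2 difference of 0.30 ± 0.33 (SE, adjusted p = 0.73, edgeR).

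Among the head fat body markers, fit, which encodes a protein secreted by that tissue, rose in hsp70-4c at 5 h. Its log2 change was 1.81 ± 0.32 (SE, adjusted p = 0.019, edgeR). This gene was the only 1 of the 11 markers tested that was called there, where 5.48% of all genes were called. The median log2 change of the 11 was −0.18, and the part of fat body RNA in the Jhe values was not tested. The summed level of the 12 fat body markers was 2867 to 4511 CPM at 5 h and 3078 to 3927 CPM in naive hsp70-4c.

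In hsp70-1c the direction of Jhe was the other one. Its level was 13.2, 20.3 and 14.4 CPM at 5 h, against 25.3, 16.9, 20.3 and 25.3 CPM in naive flies. The ranges overlapped, and the log2 difference of −0.45 ± 0.17 (SE) was not called (adjusted p = 0.20, edgeR). At 24 h the values were 20.1, 16.2 and 20.1 CPM, with 1 library just below the naive range (log2 difference −0.21 ± 0.17, SE, adjusted p = 0.77, edgeR). In w+hsp70- the 5 h libraries had 27.6, 22.1 and 24.7 CPM and overlapped the naive ones (0.22 ± 0.12, SE, adjusted p = 0.55, edgeR).

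Whether the 5 h response of Jhe differed between strains was tested as an interaction of strain and training. The response of hsp70-4c exceeded that of hsp70-1c by 1.54 ± 0.43 on the log2 scale (SE, adjusted p = 0.30, edgeR). The response of hsp70- exceeded that of hsp70-1c by 1.37 ± 0.36 (SE, adjusted p = 0.23, edgeR), and DESeq2 put this adjusted p at 0.043. This interaction and the joint test that follows were added after the data were seen. A joint test over the 4 strains gave an adjusted p of 0.14 (edgeR), which became 0.015 without hsp70-4c 5 h replicate 1. The unadjusted p of that joint test was 0.0011. At 5 h itself, Jhe in hsp70- lay above every hsp70-1c library (log2 difference 1.12 ± 0.32, SE, adjusted p = 0.088, edgeR), a difference called by DESeq2 (0.0028), with all 32 libraries in 1 fit (0.0066), and without hsp70-4c 5 h replicate 1 (0.018) or replicate 2 (0.0095). By the test used throughout, a difference between strains in the response of Jhe was not shown.

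Jhedup, the neighbouring paralogue of Jhe, was the member that set the strains furthest apart. It stood at 426, 392, 384 and 353 CPM in naive hsp70-4c, against 197, 243, 218 and 235 CPM in naive hsp70-1c. All 4 hsp70-4c libraries were above all 4 hsp70-1c libraries, and the log2 difference was 0.78 ± 0.11 (SE, adjusted p = 0.0001, edgeR). It was 0.84 without naive hsp70-1c replicate 2. Naive w+hsp70- had 156, 141 and 108 CPM, below every naive hsp70-4c library by a log2 difference of −1.52 ± 0.13 (SE, adjusted p = 1.6e-07, edgeR).

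Naive hsp70- had the lowest mean Jhedup level, with libraries at 112, 101 and 86.0 CPM. They lay below every naive hsp70-1c library, with a log2 difference of −1.17 ± 0.13 (SE, adjusted p = 3.7e-05, edgeR), or −1.12 without naive hsp70-1c replicate 2. Naive w+hsp70- and naive hsp70- overlapped, and their log2 difference of 0.44 ± 0.13 (SE) was not called (adjusted p = 0.37, edgeR). In the naive flies the order of mean Jhedup was thus hsp70-4c, hsp70-1c, w+hsp70- and hsp70-.

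After training hsp70-4c and then hsp70-1c again had the highest means. At 5 h hsp70- averaged 144 ± 17.2 CPM and w+hsp70- 139 ± 72.5 CPM (SD, n = 3 each), with overlapping libraries. At 5 h Jhedup stood at 358, 421 and 269 CPM in hsp70-4c and at 233, 209 and 197 CPM in hsp70-1c. The groups did not overlap, but the log2 difference of 0.72 ± 0.32 (SE) was not called (adjusted p = 0.31, edgeR). Without w+hsp70- 5 h replicate 1 it was called (adjusted p = 0.021). At 24 h the values were 435, 325 and 337 CPM in hsp70-4c and 273, 198 and 245 CPM in hsp70-1c, with a log2 difference of 0.61 ± 0.15 (SE, adjusted p = 0.053, edgeR) that DESeq2 called (0.0085), as did edgeR with no filter on low counts (0.012).

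Jhedup varied most within w+hsp70- at 5 h, where the libraries had 221, 82.9 and 113 CPM. Replicate 1 stood well above the other libraries of its group. All 3 lay below the 5 h libraries of hsp70-4c, and the log2 difference of −1.33 ± 0.33 (SE) was called (adjusted p = 0.035, edgeR). That call was lost with no filter on low counts (adjusted p = 0.059) and without any 1 of 8 libraries at 5 h. These were the 3 of hsp70-1c (0.054, 0.056 and 0.055), replicates 1 and 2 of hsp70-4c (0.093 and 0.10), replicate 3 of w+hsp70- (0.12), and replicates 1 and 2 of hsp70- (0.054 and 0.053). Without w+hsp70- replicate 1 the log2 difference was −1.83, with an adjusted p of 0.00011.

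No training change of Jhedup was called in any of the 6 comparisons. The largest was in hsp70-, with 141, 129 and 163 CPM at 5 h against 112, 101 and 86.0 CPM in naive flies. Those ranges lay apart, with a log2 difference of 0.54 ± 0.13 (SE, adjusted p = 0.37, edgeR). In the other 5 comparisons the log2 change ran from −0.15 in hsp70-4c at 5 h to 0.10 in hsp70-1c at 24 h.

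The epoxide hydrolase gene Jheh3 showed the opposite strain pattern, lowest in hsp70-4c at every time. Naive hsp70-4c had 41.1, 31.3, 44.3 and 37.3 CPM, against 65.6, 98.6, 57.8 and 74.6 CPM in naive hsp70-1c. Both ranges lay apart, and the log2 difference was −0.96 ± 0.16 (SE, adjusted p = 0.00088, edgeR). It was −0.78 without naive hsp70-1c replicate 2 (adjusted p = 0.00067). Naive w+hsp70-, at 79.5, 58.2 and 81.1 CPM, also lay above naive hsp70-4c (log2 difference 0.93 ± 0.17, SE, adjusted p = 0.0024, edgeR).

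The lower Jheh3 level of hsp70-4c was also measured in the separate trained pools. At 5 h it was 40.8, 33.1 and 30.3 CPM in hsp70-4c, against 52.4, 59.2 and 61.2 CPM in hsp70-1c (log2 difference −0.73 ± 0.15, SE, adjusted p = 0.0071, edgeR). At 24 h it was 41.5, 32.2 and 40.8 CPM in hsp70-4c, against 71.5, 58.1 and 63.9 CPM in hsp70-1c (−0.76 ± 0.13, SE, adjusted p = 0.0077, edgeR). At neither time did the strains overlap.

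At 5 h w+hsp70- had 66.2, 67.4 and 82.6 CPM of Jheh3, above hsp70-4c by a log2 difference of 1.05 ± 0.15 (SE, adjusted p = 0.00037, edgeR). The 5 h libraries of hsp70- had 85.9, 100.0 and 66.8 CPM, all above those of hsp70-1c, with a log2 difference of 0.55 ± 0.15 (SE, adjusted p = 0.047, edgeR). This last call was near the threshold. It was lost with DESeq2 size factors (adjusted p = 0.050), with all 32 libraries in 1 fit (0.057) and without any 1 of 9 of the 5 h libraries. These were the 3 of hsp70-1c (0.14, 0.11 and 0.11), replicate 2 of hsp70-4c (0.077), the 3 of w+hsp70- (0.063, 0.077 and 0.058), and replicates 1 and 2 of hsp70- (0.12 and 0.16). The other Jheh3 calls between strains stayed under 0.05 without each library in turn.

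Jheh3 moved little with training, and none of the 6 changes was called. The log2 change was between −0.36 and −0.00, with SE of 0.13 to 0.16. The lowest was in hsp70-1c at 5 h, where 52.4, 59.2 and 61.2 CPM overlapped the naive values (−0.36 ± 0.16, SE, adjusted p = 0.27, edgeR).

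**Figure D3:**
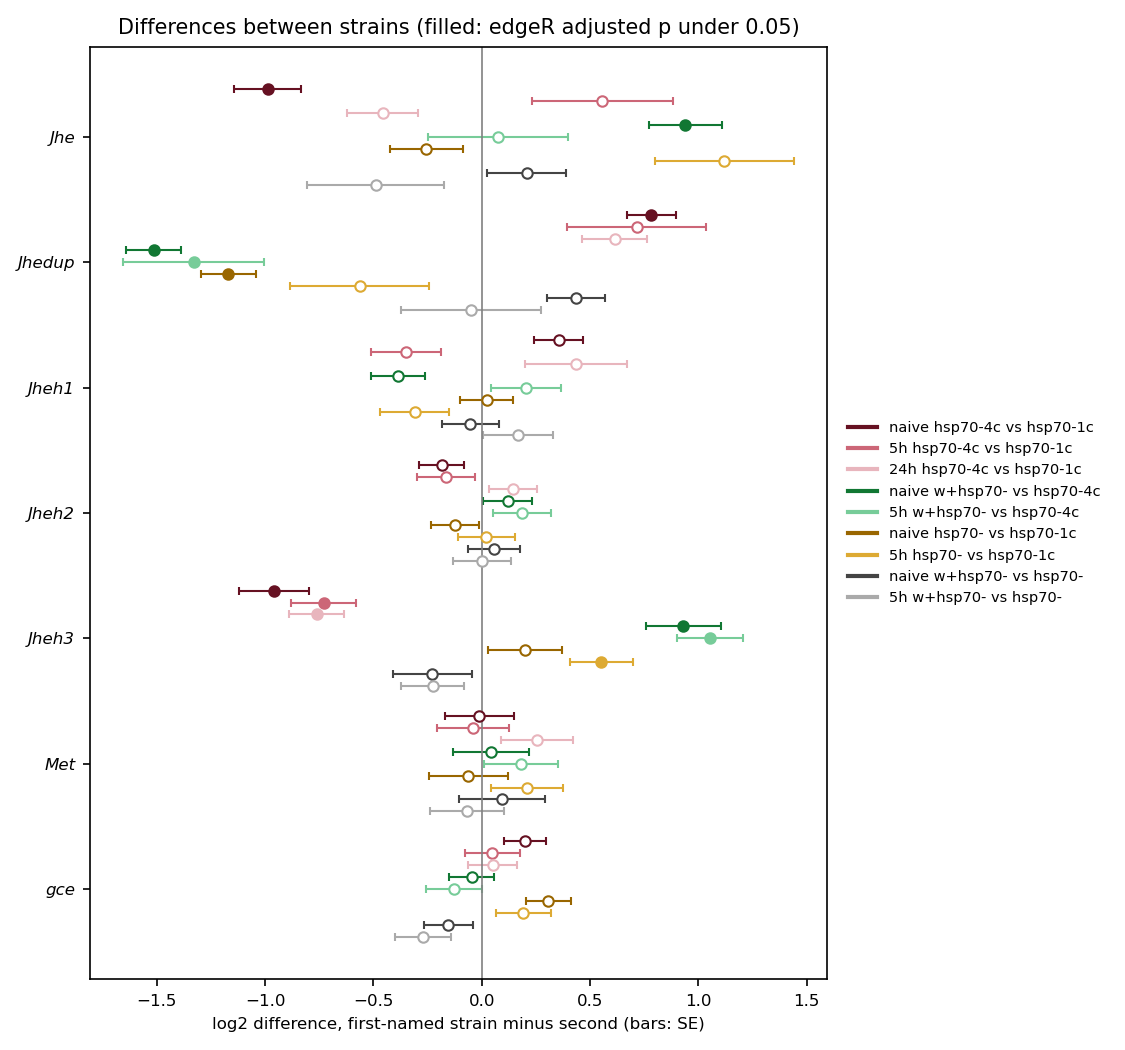
Log2 difference between strains for each member (x axis, first-named strain minus the second), for naive, 5 h and 24 h flies, with bars of 1 SE from the edgeR fit. Filled points have an adjusted p under 0.05. Jheh3 is filled in 6 of the 9 comparisons, Jhedup in 4 and Jhe in 2, and no point of Jheh1, Jheh2, Met or gce is filled.

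Jheh1, another epoxide hydrolase of the cluster, was the member with a called training change. In w+hsp70- it stood at 224, 197 and 168 CPM at 5 h, against 135, 139 and 124 CPM in naive flies. All 3 trained libraries were above all 3 naive ones, and Jheh1 rose by 0.57 ± 0.11 on the log2 scale (SE, adjusted p = 0.012, edgeR), a level 1.48 times the naive one. The call was lost without naive replicate 1 (adjusted p = 0.054), without 5 h replicate 1 (0.064), without 5 h replicate 2 (0.051) and with all 32 libraries in 1 fit (0.20).

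The other strains gave the following values for Jheh1 at 5 h. In hsp70-1c the 5 h libraries had 164, 255 and 232 CPM, against 135, 122, 149 and 131 CPM in naive flies. The ranges lay apart, and the log2 difference of 0.69 ± 0.20 (SE) was not called (adjusted p = 0.10, edgeR). It was called by DESeq2 (0.0086), with all 32 libraries in 1 fit (0.018), and without hsp70-1c 24 h replicate 1 (0.042), 24 h replicate 3 (0.024) or 5 h replicate 1 (0.043).

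In hsp70- Jheh1 stood at 167, 178 and 181 CPM at 5 h, against 168, 140.1 and 103 CPM in naive flies, with 1 naive library above the lowest trained one (log2 difference 0.37 ± 0.16, SE, adjusted p = 0.79, edgeR). In hsp70-4c, 181, 191 and 139.5 CPM at 5 h spanned the naive 174, 184, 172 and 167 CPM (−0.02 ± 0.13, SE, adjusted p = 0.93, edgeR). At 24 h Jheh1 had 247, 168 and 192 CPM in hsp70-4c, while hsp70-1c had 109, 141 and 198 CPM, and neither differed from its naive group by the test (adjusted p = 0.45 and 0.87, edgeR).

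The 5 h response of Jheh1 in hsp70-4c was below that in hsp70-1c by a log2 difference of −0.71 ± 0.19 (SE, adjusted p = 0.26, edgeR). This became 0.048 without hsp70-1c 5 h replicate 1, and DESeq2 gave 0.020. The joint test over the 4 strains gave an adjusted p of 0.29 (edgeR). Between naive strains, Jheh1 was at 167 to 184 CPM in hsp70-4c and at 122 to 149 CPM in hsp70-1c, which do not overlap. The log2 difference of 0.36 ± 0.11 (SE) had an adjusted p of 0.053 (edgeR). It was called by DESeq2 (0.028), with DESeq2 size factors (0.045), with no filter on low counts (0.037) and without hsp70-1c naive replicate 3 (0.046), hsp70- naive replicate 1 (0.011) or hsp70- naive replicate 3 (0.0079). Naive w+hsp70-, at 124 to 139 CPM, also lay below naive hsp70-4c (log2 difference −0.39 ± 0.12, SE, adjusted p = 0.055, edgeR), and that difference was called by DESeq2 (0.034), with no filter on low counts (0.035) and without hsp70-1c naive replicate 2 (0.043), hsp70- naive replicate 1 (0.012) or hsp70- naive replicate 3 (0.0086).

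Jheh2, the middle gene of the cluster, was the steadiest of the hydrolase genes. Over the 32 libraries its level ran from 159.7 to 236 CPM, with a coefficient of variation of 11.1%, against 22.3% for Jheh1 and 33.1% for Jheh3. Its training changes were between −0.11 and 0.22 on the log2 scale and its strain differences between −0.19 and 0.19, with none called. In hsp70-4c at 24 h, 227, 218 and 222 CPM lay above the naive 179, 200.1, 174 and 210.2 CPM, with a log2 difference of 0.22 ± 0.10 (SE, adjusted p = 0.32, edgeR).

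**Figure D4:**
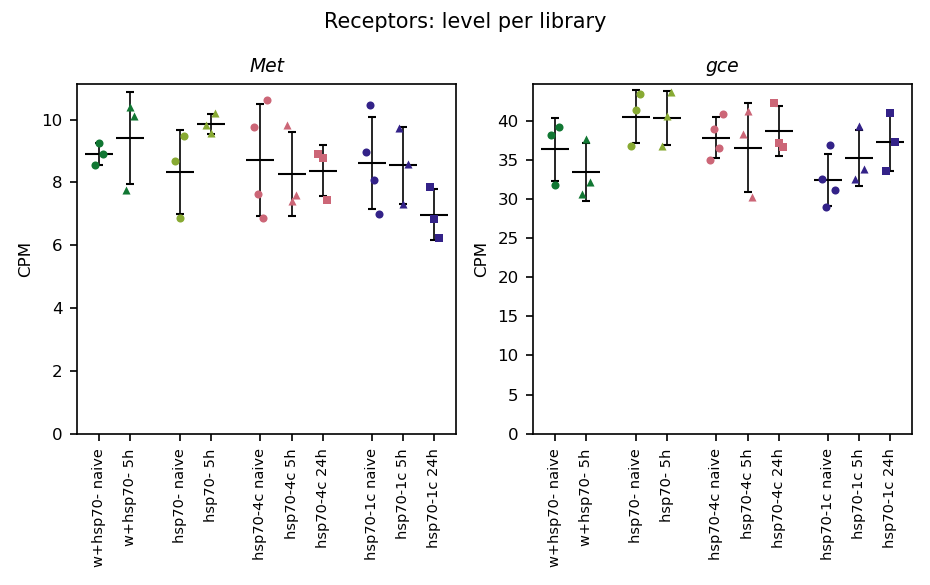
Level of the receptor genes Met and gce in CPM (y axis, from 0), with 1 point per library, for the 10 strain and time groups (x axis); bars show the mean and SD of the 3 or 4 libraries of a group. Met lies between 6.23 and 10.6 CPM and gce between 29.0 and 43.6 CPM, and every group overlaps the next in the order of means.

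The receptor genes Met and gce, which encode paralogous bHLH-PAS proteins, had no called difference in any of the 15 comparisons of groups. Group means of Met ran from 6.97 CPM in hsp70-1c at 24 h to 9.86 CPM in hsp70- at 5 h. Its training changes were between −0.31 and 0.26 on the log2 scale, with SE of 0.16 to 0.18. The lowest was in hsp70-1c at 24 h, where 7.84, 6.85 and 6.23 CPM stood against 8.97, 10.4, 8.09 and 6.99 CPM in naive flies (adjusted p = 0.62, edgeR). In hsp70- at 5 h, 9.81, 9.56 and 10.2 CPM lay above the naive 8.69, 6.86 and 9.47 CPM, with a log2 difference of 0.26 ± 0.18 (SE, adjusted p = 0.87, edgeR).

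The gce gene stood at 36.8, 41.4 and 43.3 CPM in naive hsp70-, against 32.6, 29.0, 36.9 and 31.2 CPM in naive hsp70-1c. The ranges just overlapped, and the log2 difference of 0.31 ± 0.11 (SE) had an adjusted p of 0.087 (edgeR). Without hsp70-1c naive replicate 3 or without hsp70- naive replicate 1 it was called (adjusted p = 0.049 and 0.047). Its training changes were between −0.13 and 0.20, with SE of 0.11 to 0.12. Across all libraries gce was higher than Met, at 6.32 ± 0.70 against 1.69 ± 0.25 CPM per kilobase of exon (SD, n = 32).

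Kr-h1, the zinc-finger gene that the hormone induces through Met and gce, had 0 counts in 32 of 32 libraries, against a total of 231.4 M assigned reads. A count of 0 allows up to 3 counts, or 0.0130 CPM of that total, a limit of counting error only. The annotation gives Kr-h1 5306 exon bases, of which 4168 are shared with CG45075 on the same strand and 1138 are its own. CG45075 also had 0 counts in all 32 libraries. Neither the annotation nor the rule for reads that fall on shared exons is given in the sources used here, so the 0 is a statement about these counts and not about the transcript. No comparison of Kr-h1 between groups was possible.

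**Figure D5:**
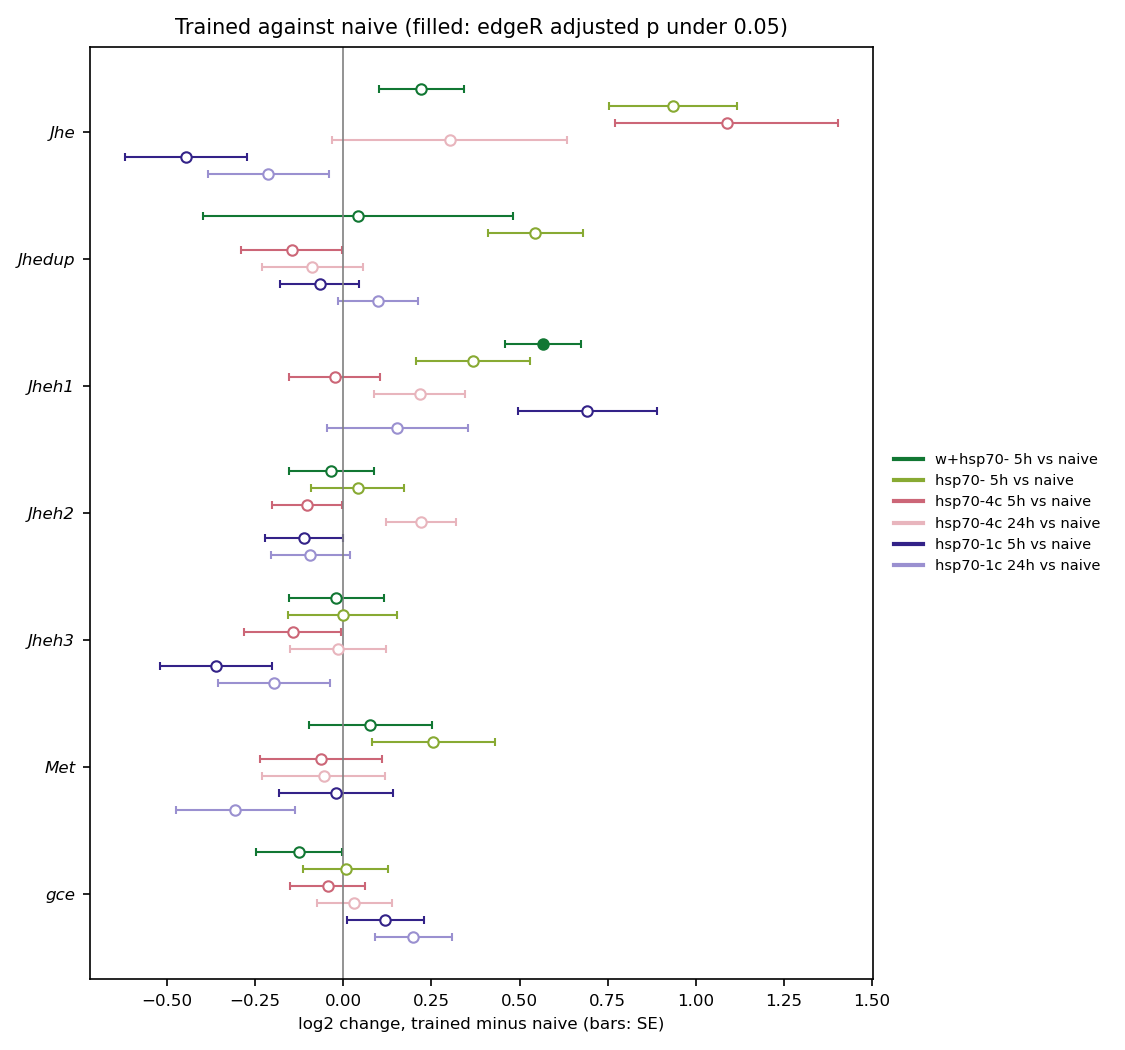
Log2 change of each member from naive flies (x axis, trained minus naive), for the 6 combinations of strain and time, with bars of 1 SE from the edgeR fit. The filled point, with an adjusted p under 0.05, is Jheh1 in w+hsp70- at 5 h; Jhe lies near 1 in hsp70- and hsp70-4c at 5 h and below 0 in hsp70-1c.

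Counted by comparison, training called 1 of 7 members in w+hsp70- at 5 h, where 1.93% of 10015 genes were called. It called 0 of 7 in hsp70- at 5 h (0.0305% of all genes), in hsp70-4c at 5 h (5.48%) and 24 h (0.923%), and in hsp70-1c at 5 h (3.51%) and 24 h (0.0%), all by edgeR. At an unadjusted edgeR p under 0.05 the members numbered 1 in w+hsp70- at 5 h (1099 of 10015 genes) and 3 in hsp70- at 5 h (621 of 9849). In hsp70-4c they numbered 1 at 5 h (2357 of 10400 genes) and 1 at 24 h (1588 of 10400). In hsp70-1c they numbered 3 at 5 h (1810 of 10514 genes) and 0 at 24 h (974 of 10514). DESeq2 called 1 member in each 5 h comparison and 0 at 24 h. The 5 h and 24 h comparisons of a strain share its naive libraries.

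The median log2 change of the 7 members was 0.04 in w+hsp70-, 0.26 in hsp70-, −0.06 in hsp70-4c, and −0.07 for hsp70-1c, at 5 h. At 24 h the hsp70-4c median was 0.03 and that of hsp70-1c −0.09. The median over all genes tested was between −0.00 and 0.01 in these comparisons.

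Between naive strains the members called were 3 of 7 for hsp70-4c over hsp70-1c (10.1% of all genes called), 3 of 7 for w+hsp70- over hsp70-4c (9.91%) and 1 of 7 for hsp70- over hsp70-1c (7.53%). For w+hsp70- over hsp70- none was called (0.287%), and DESeq2 called 0 members and 48 genes. At an unadjusted edgeR p under 0.05 there were 1 member and 742 of 10462 genes. At 5 h the counts were 2 of 7 for w+hsp70- over hsp70-4c (9.3%), 1 for hsp70-4c over hsp70-1c (5.61%) and 1 for hsp70- over hsp70-1c (4.37%). For w+hsp70- over hsp70- at 5 h none was called by edgeR (0.266%) or by DESeq2, which called 54 genes. None had an unadjusted edgeR p under 0.05, while 754 of 10521 genes did. At 24 h 1 of 7 was called for hsp70-4c over hsp70-1c (4.2%).

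No member was called in a comparison of responses between strains by edgeR. For the 5 h response of hsp70-4c against hsp70-1c (0.0189% of all genes called by edgeR), DESeq2 called 86 genes, 1 of them a member. Before adjustment 2 members and 928 of 10588 genes were under 0.05 by edgeR. In the joint test over the 4 strains (0.0746%), DESeq2 again called 1 member, among 166 genes. Before adjustment 2 members and 1073 of 10729 genes were under 0.05. For the 5 h response of hsp70- against hsp70-1c (0.0%), DESeq2 called 1 member, among 36 genes. Before adjustment 1 member and 935 of 10729 genes were under 0.05. DESeq2 called no member and 4 genes for w+hsp70- against hsp70- (0.0%), with 1 member and 272 of 10223 genes under 0.05 before adjustment. For w+hsp70- against hsp70-4c (0.121%) it called no member and 98 genes, with 2 members and 1011 of 10729 genes under 0.05. For hsp70- against hsp70-4c (0.373%) both member counts were 0, with 178 genes called by DESeq2 and 1303 of 10729 under 0.05. They were also 0 for w+hsp70- against hsp70-1c (0.0%), with 2 genes called by DESeq2 and 587 of 10729 under 0.05. For the 24 h response of hsp70-4c against hsp70-1c (0.0%), DESeq2 called 0 members and 1 gene. Before adjustment 2 members and 477 of 10604 genes were under 0.05.

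Other cell types varied between the same groups. The 12 fat body markers summed to 3078 to 3927 CPM in naive hsp70-4c and to 5227 to 6426 CPM in naive hsp70-1c. This sum adds genes of unlike level. Over all libraries apolpp ran from 1061 to 2353 CPM and Lsp2 from 18.5 to 3359 CPM, while Yp1 ran from 0.336 to 4.62 CPM. The 5 haemocyte markers summed to 125.6 to 145.6 CPM in naive hsp70-4c and to 189.3 to 198.6 CPM in naive hsp70-1c. Of these 5, 4 were called lower, where 10.1% of all genes were called in either direction. The 6 photoreceptor markers summed to 30004 to 35703 CPM in naive hsp70-4c and to 42137 to 45464 CPM in naive hsp70-1c, with 3 of 6 called lower (10.1% of all genes). None of the 11 fat body markers tested was called between these naive strains, and 2 were higher in hsp70-4c at 5 h (5.61% of all genes called). In naive hsp70-, 4 of 11 were lower than in naive hsp70-1c (7.53% of all genes called), with a median log2 difference of −0.70. Of the 11, w+hsp70- had 2 lower than hsp70-4c in naive flies (median −0.44, 9.91% of all genes called) and 4 lower at 5 h (median −0.39, 9.3%). Jhedup was also called lower in these last 3 comparisons. In naive hsp70-4c, where the fat body sum was below that of naive hsp70-1c, Jhedup was called higher (log2 difference 0.78). At 5 h in hsp70-1c, 4 of 10 tested fat body markers fell against naive flies (3.51% of all genes called). All 12 summed to 2755 to 3224 CPM at 5 h. Jhedup averaged 213 CPM in those 5 h libraries, against 223 CPM in naive hsp70-1c. The part of these cell types in the strain and training differences of Jhe, Jhedup, Jheh1 and Jheh3 was not tested.

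Of 14 tested genes for hormone synthesis and its control, 1 fell in hsp70-4c at 5 h, where 5.48% of all genes were called, and 1 was higher in naive hsp70- than in naive hsp70-1c (7.53%), with none in the other 13 comparisons of groups. The gene that fell was Fpps, the farnesyl diphosphate synthase upstream of the hormone, with a log2 change of −0.47 ± 0.09 (SE, adjusted p = 0.011, edgeR). The higher one was AstC, which encodes an allatostatin neuropeptide (0.31 ± 0.09, SE, adjusted p = 0.039, edgeR). For jhamt the training changes were between −0.07 and 0.18, and none was called.

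Among 12 genes for receptor partners and ecdysone crosstalk, 3 comparisons gave 1 call each, where 1.93%, 5.48% and 9.3% of all genes were called. Hsp83, the chaperone that binds Met in flies, rose in w+hsp70- at 5 h by 0.66 ± 0.10 on the log2 scale (SE, adjusted p = 0.0036, edgeR). Chd64 fell in hsp70-4c at 5 h (−0.33 ± 0.09, SE, adjusted p = 0.044, edgeR). EcR, the ecdysone receptor, was higher in w+hsp70- than in hsp70-4c at 5 h (0.55 ± 0.15, SE, adjusted p = 0.029, edgeR).

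Among 9 hormone-inducible or hormone-linked genes, none was called after training. Between strains 1 was called for naive hsp70-4c over hsp70-1c (10.1% of all genes called), 1 for naive w+hsp70- over hsp70-4c (9.91%), and at 5 h 1 for hsp70-4c over hsp70-1c (5.61%) and 2 for w+hsp70- over hsp70-4c (9.3%). RNaseZ, first described as the hormone-inducible gene JhI-1, was higher in naive hsp70-4c than in naive hsp70-1c by 1.41 ± 0.19 on the log2 scale (SE, adjusted p = 3.9e-05, edgeR). It was lower in naive w+hsp70- than in naive hsp70-4c (−1.45 ± 0.21, SE, adjusted p = 0.00015, edgeR). The same directions were called at 5 h, at 1.29 ± 0.26 for hsp70-4c over hsp70-1c and −1.57 ± 0.28 for w+hsp70- over hsp70-4c (SE, adjusted p = 0.0074 and 0.0025, edgeR). JhI-21, an amino acid transporter gene, was lower in w+hsp70- than in hsp70-4c at 5 h (−0.53 ± 0.15, SE, adjusted p = 0.038, edgeR).

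Of 10 other genes of the carboxylesterase family, among them the adhesion gene Gli, 3 were called in hsp70-1c at 5 h (3.51% of all genes). There alpha-Est7 fell by 0.55 ± 0.08 and Est-6 by 0.47 ± 0.08 on the log2 scale, while alpha-Est10 rose by 0.60 ± 0.11 (SE, adjusted p = 0.0017, 0.0065 and 0.0074, edgeR). In w+hsp70- at 5 h, alpha-Est7 fell by 0.57 ± 0.10 (SE, adjusted p = 0.0047, edgeR). No gene of this list was called in the other 4 training comparisons. In naive hsp70-, 3 of the 10 were lower than in naive hsp70-1c (7.53% of all genes called). At 5 h hsp70-4c had 1 higher and 1 lower against hsp70-1c (5.61%), 1 was lower in hsp70- than in hsp70-1c (4.37%) and 5 were lower in w+hsp70- than in hsp70-4c (9.3%).

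For each detected member, the genes whose log2 CPM followed it most closely over the 32 libraries were also found, with Pearson's r given as a description. The points share strains, libraries and depth. Jhedup was followed by CG9497 (r = 0.955) and Obp19a, an odorant-binding protein gene (r = 0.950). Obp19a averaged 168 ± 28.7 CPM in hsp70-4c (SD, n = 10), 133 ± 17.9 in hsp70-1c (n = 10), 80.5 ± 30.8 in w+hsp70- (n = 6) and 57.1 ± 14.7 in hsp70- (n = 6).

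Jheh3 was followed by CG17272 (r = 0.931) and the transporter gene Picot (r = 0.929). Jheh1 was followed by Cyp6a2, a cytochrome P450 gene of xenobiotic metabolism (r = 0.785), and by the polyubiquitin gene Ubi-p63E (r = 0.777). Jhe was followed by CG15282 (r = 0.787) and mir-4971 (r = 0.731), and Jheh2 by Jhbp13 (r = 0.689) and CG31207 (r = 0.664). For Met the closest were CG42699 (r = 0.681) and syd (r = 0.630), and for gce dpr9 (r = 0.706) and promL (r = 0.705).

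Members followed each other less closely in the same direction, and negative values of r were not examined. The highest r between members was 0.476, for Jhe with Jheh3. Within the epoxide hydrolase cluster it was 0.351 for Jheh1 with Jheh2. The highest r of Jhedup with any member was 0.317, with Jheh1, so its neighbour Jhe lay below that. The strain means of Jhedup and Jheh3 ran in opposite orders. Jhedup averaged 370 CPM in hsp70-4c, 225 in hsp70-1c, 137 in w+hsp70- and 122 in hsp70-. Jheh3 averaged 37.3, 66.3, 72.5 and 84.8 CPM in the same strains.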

How the data were processed

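The authors used Trimmomatic, STAR 2.5.0a and featureCounts 1.5.0-p1 with build dm6, per the submitters' processing notes. The deposited files hold raw counts of reads per gene, 1 file per library, with 17559 gene lines and 12 status lines; the status lines, which give totals of assigned and unassigned reads, were left out of library sizes. Of all reads in the status lines of a library, 58.1 to 68.7% fell outside annotated genes. Strand and overlap settings and the annotation release are not given in the sources used here. Symbols and positions come from the Ensembl BDGP6 annotation, and 17253 identifiers had a symbol.

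Tests were made in R 4.3.3 with the robust 2-sided quasi-likelihood test of edgeR 4.0.16, on TMM-scaled group means after filterByExpr, with Benjamini-Hochberg adjustment over all genes tested and a call at an adjusted p under 0.05. An SE is the size of the log2 change divided by the square root of its F statistic. Training was tested within a strain, strains within a time, and responses as interactions, 5 of which were added after the data were seen. Those added were the joint test over the strains and the 5 h responses of hsp70- and w+hsp70- against hsp70-1c and against hsp70-4c. CPM use TMM sizes over all 32 libraries, so a fold from CPM can differ slightly from the fitted one. The p-values measure the spread between pools of flies. Ranges that lie apart or overlap describe the few libraries of each group and are no test. How often ranges lay apart over all genes was not computed. The lowest chi-square per degree of freedom between 2 replicates was 6.05 over 36 pairs, so no library was counted as a repeat of another. DESeq2 1.42.0 and other settings were alternatives.

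All 8 members are named, with the 2 genes most alike to each, and up to 3 called genes of each pathway list in a comparison, those with the smallest p. Members and lists were chosen with earlier results of these data known. Of 116 list genes, 112 matched by symbol; br, FASN1, para and wupA did not and were left out. No sequence table was at hand, and no sequence is shown.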

Additional observations from a re-analysis of the deposited data

How the results depend on the processing

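Each count of members called was recomputed with other scaling (DESeq2 size factors), without the low-count filter, with 1 fit of all 32 libraries, with the replicate number as a block, with DESeq2 and without each library in turn. None of the 13 called member differences turned its direction under these settings. The number of all genes called is given beside DESeq2 counts only. For the other settings it is not given, so a moved count cannot be set against all genes. With all 32 libraries in 1 fit, 1 member was called in hsp70-1c at 5 h, 1 in hsp70-4c at 5 h and 0 in w+hsp70- at 5 h. Without the filter, the count was 1 in hsp70- at 5 h, 1 for w+hsp70- over hsp70-4c at 5 h, and 2 for hsp70-4c over hsp70-1c at 24 h. With DESeq2 size factors it was 0 for hsp70- over hsp70-1c at 5 h.

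With DESeq2 the count was 1 in hsp70-1c, hsp70-4c and hsp70- at 5 h (513, 682 and 39 genes called). It was 2 for hsp70- over hsp70-1c at 5 h (614 genes called) and 2 for hsp70-4c over hsp70-1c at 24 h (535 genes called). It was 1 for the 5 h responses of hsp70-4c and of hsp70- against hsp70-1c (86 and 36 genes called), and 1 for the 4 strains together (166). DESeq2 gave no adjusted p for Jhe in the response of hsp70-4c against hsp70-1c.

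With the replicate block the count was 0 for hsp70- over hsp70-1c at 5 h (Jheh3, adjusted p = 0.091, edgeR) and 2 for hsp70-4c over hsp70-1c at 24 h. Replicate numbers did not pair the samples, since in 0 of 15 comparisons did every same-numbered pair correlate above 0.1.

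Leaving out 1 library gave 0 to 1 members in each of the 5 h training comparisons, 0 to 2 for hsp70- over hsp70-1c at 5 h, and 1 to 2 for hsp70-4c over hsp70-1c and for w+hsp70- over hsp70-4c at 5 h. It gave 1 to 2 for naive hsp70- over hsp70-1c, and 0 to 1 for the 5 h response of hsp70-4c against hsp70-1c and for the 4 strains together. The 13 called member differences were lost in 20 of 158 such fits. The cause of these shifts was not tested. Met had the fewest reads of the detected members, 33 to 85 per library.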

Other observations

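A further group, the 14 Jhbp genes of the takeout/juvenile hormone binding protein family, was looked at after the other results were seen. Of these 14 genes, Jhbp10 had no counted read, and 10 to 12 were tested in each comparison. Jhbp7 fell at 5 h in hsp70-4c by 0.91 ± 0.17 on the log2 scale (SE, adjusted p = 0.0098, edgeR) and in hsp70-1c by 0.71 ± 0.16 (SE, adjusted p = 0.031, edgeR). None was called in the other 4 training comparisons.

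Between naive strains, Jhbp12 and Jhbp15 were higher in hsp70-4c than in hsp70-1c, by log2 differences of 0.65 ± 0.19 and 0.68 ± 0.15 (SE, adjusted p = 0.039 and 0.0080, edgeR). Jhbp13 and Jhbp14 were lower there, by −0.37 ± 0.10 and −0.55 ± 0.09 (SE, adjusted p = 0.017 and 0.00029, edgeR). Jhbp12 was lower in w+hsp70- than in hsp70-4c, by −1.33 ± 0.22 in naive flies and −1.14 ± 0.18 at 5 h (SE, adjusted p = 0.0010 and 0.00073, edgeR). The family is known for binding small lipids, and which of its members bind juvenile hormone was not measured here.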
